A study of Mus musculus with 8 samples.

Results

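Pre-mRNA splicing factors and heterogeneous nuclear ribonucleoproteins (hnRNPs) were examined in the kidney of Scube3 N294K/N294K mice. They were taken as all genes whose symbol on the array began with Srsf, Hnrnp, Snrp, Sf3a, Sf3b, Prpf or U2af. This gave 60 of the 16593 genes on the array, with 112 of its 25697 probes. Kidney RNA came from 4 male mice homozygous for the N294K change in Scube3 and from 4 male wild type mice, with 1 array per mouse. All 8 mice had the C3HeB/FeJ background and an age of 29 wk. The mutation was induced with ENU and is recessive. Total RNA of the whole organ was hybridized to Illumina Mouse Ref8 v2.0 BeadChips, in which beads carrying 1 probe sequence give 1 brightness value per probe. In such bulk samples, fewer cells of a type and less RNA per cell cannot be told apart.

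Splicing removes introns from a pre-mRNA in the spliceosome, a particle built from small nuclear ribonucleoproteins (snRNPs) and many other proteins. U1 snRNP recognizes the start of the intron, U2AF the polypyrimidine tract and its end, and U2 snRNP with its SF3a and SF3b subcomplexes the branch point. Many PRPF proteins act in the tri-snRNP and in the activated spliceosome. SR proteins, encoded by Srsf genes, mostly bind exonic enhancers and favour the use of nearby splice sites. The hnRNP proteins coat nascent transcripts, often oppose SR proteins at silencer elements, and also serve in mRNA export, stability and translation. Many of these RNA-binding proteins bind their own transcripts, and several SR and hnRNP genes produce alternative transcripts with a premature stop codon.

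A probe counted as above background where its detection p was under 0.05 on at least 4 of the 8 arrays, which left 50 of the 60 genes and 84 of the 112 probes. Levels are normalised intensities on the log2 scale, so a difference of 1 is a doubling. The median level of the 50 genes in wild type mice was 9.24, beside 7.73 for the 9000 genes above background, and their levels ran from 4.95 (Sf3b1) to 12.11 (Hnrnpab). Levels of different probes do not give the relative abundance of their transcripts. The other 10 genes (Hnrnpa3, Hnrnpd, Hnrnph2, Hnrnpr, Hnrnpu, Prpf31, Prpf4b, Snrpb2, Snrpe and Srsf12) were not tested. With the exception of Hnrnph2, they were not detected on any array by their brightest probe. Hnrnph2 was detected in 3 wild type mice and in 0 mutant mice, and it read 4.74, 4.89, 5.01 and 4.97 in the 4 wild type mice, against 4.58, 4.77, 4.49 and 4.59 in the 4 mutant mice. These values were near background and overlapped between genotypes. No probe on the array carried the symbols Srsf7, Srsf11 or U2af1, which were not analysed here.

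Several hnRNP genes and 2 SR protein genes were lower in the mutant kidney. Among the Sm and U snRNP, SF3a and SF3b, PRPF and U2AF genes, only Snrpa and Sf3b6 passed the test. This does not extend to spliceosome proteins with other symbols, of which 5 were lower and 3 higher of 34. That was 23.5% called, beside 16.3% of all genes. At a Benjamini-Hochberg adjusted p under 0.05 in limma, 8 genes fell (Srsf10, Hnrnpf, Hnrnpa2b1, Hnrnph1, Hnrnpk, Hnrnph3, Srsf5 and Hnrnpll) and 2 rose (Sf3b6 and Snrpa). The 10 genes were 20.0% of the 50 tested, and 16% fell. Among all 9000 genes, 16.3% were called, 7.86% lower and 8.4% higher. The share of called members was thus near the background and the share of lower calls was above it. The members were brighter than all genes (median 9.24 against 7.73 in wild type mice). Their median SE was smaller, at 0.0697 against 0.0816. The part of this in the shares was not tested. With arrays scaled to a common median in place of quantile normalization, 85% of all calls were lower rather than 48.3%. At that setting 8 members fell and 0 rose, beside 11.2% of all genes lower and 1.98% higher, so the excess of lower calls among members was smaller. The median difference of the 50 genes, mutant minus wild type, was -0.035, against 0.0255 for all genes. Of the 84 probes, 1 was not detected in any mutant mouse and had passed the filter through the wild type mice. Of the other 83, 14 were lower and 2 higher, beside 8.9% and 7.83% of all probes (16.7% in either direction).

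**Figure D1:**
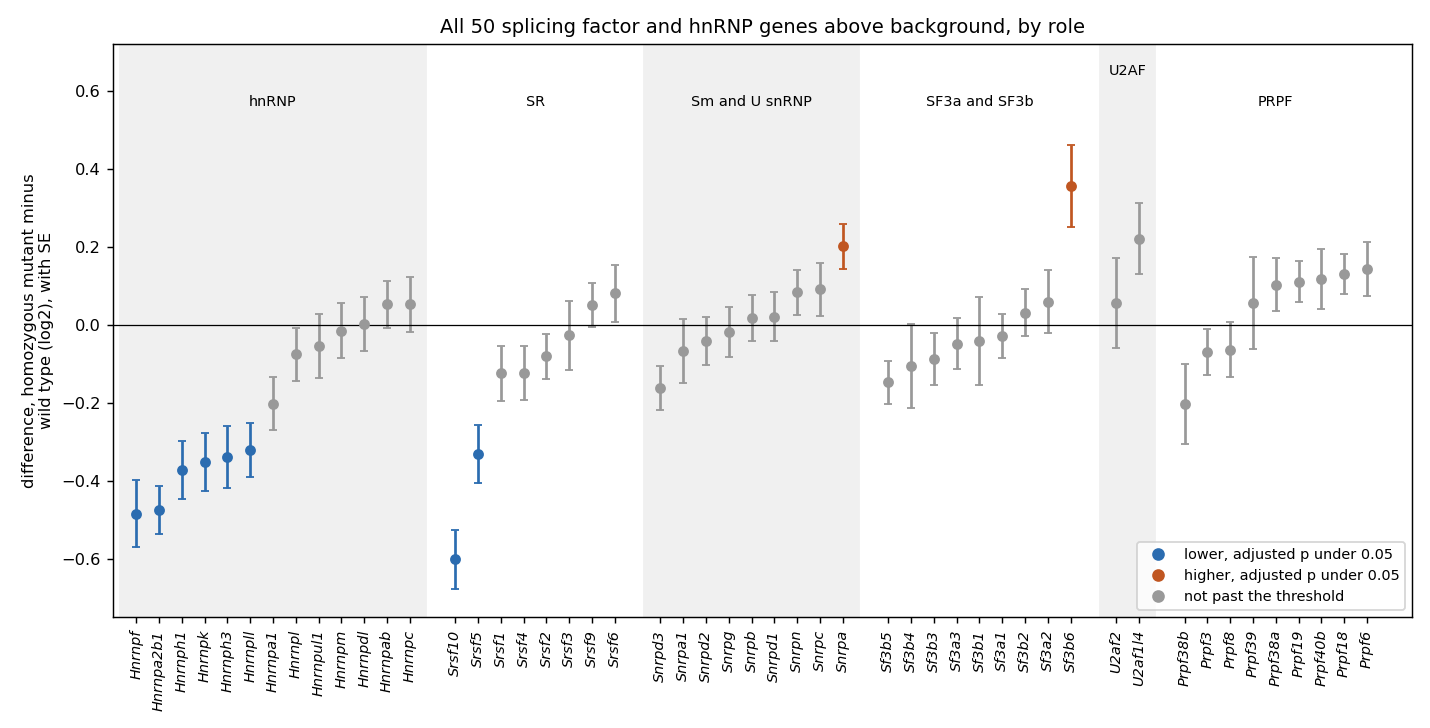
Difference between homozygous mutant and wild type mice (vertical axis, log2, mutant minus wild type) for each of the 50 genes above background, grouped by role, with points for the fitted difference and bars for its SE (4 mice per genotype). The 8 blue points, 6 of them hnRNP genes, lie between -0.60 and -0.32, and the 2 orange points are Snrpa at 0.20 and Sf3b6 at 0.36.

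Other measurements moved with genotype in the same arrays. Of 8 kidney identity genes above background, 3 fell, namely Slc12a1 (-1.14), Umod (-0.54) and Lrp2 (-0.47), and 1 rose, Slc12a3 (0.30). Slc34a1 (0.01), Cdh16 (0.02), Kap (-0.09) and Aqp2 (0.17) did not pass the threshold. The summed linear level of the 8 genes was 58850 to 61490 in wild type and 52210 to 56250 in mutant mice. All 4 tested urothelial genes (Upk1a, Upk1b, Upk2 and Upk3a) rose, from a sum of 113.4 to 154.7 in wild type to 205.3 to 308.8 in mutant mice, while Krt5 was not above background. The 2 red blood cell genes above background overlapped between genotypes, at 2611 to 7864 and 2686 to 7457. No leukocyte, adipocyte, liver, adrenal or proliferation marker with a probe passed the detection filter, but some were detected on fewer arrays. The leukocyte gene Cd3e was detected in 0 wild type and 3 mutant mice. It read up to 4.86 in wild type mice and 4.54 to 5.80 in mutant mice. Adipoq (adipocytes) and Apoa1 (liver) were each detected in 1 wild type and 2 mutant mice, and Top2a (proliferation) in 2 and 1. Adipoq reached 6.47 in mutant replicate 3, and Apoa1 6.92 in mutant replicate 1 and 6.29 in wild type replicate 4. The differences of these markers were not tested. The scanned median was 133.24 to 138.77 in wild type and 127.49 to 134.69 in mutant arrays, and 12602 to 13127 probes were detected per array. The part of these shifts in the splicing genes was not tested. Scube3 itself differed by 0.12 (SE 0.16, adjusted p = 0.62 in limma) on its brighter probe and by 0.16 (SE 0.092, adjusted p = 0.25) on the dimmer one. Both were dim, at 5.38 and 4.85 in wild type mice, and the dimmer one was detected in 1 wild type and 4 mutant mice. A point mutation need not change the transcript level of its gene.

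The hnRNP genes held most of the lower calls. Of 13 tested, 6 fell and 0 rose. The fitted difference was below 0 for 10 of the 13, beside 4003 of the 9000 genes. The median of the 13 was -0.20. At an unadjusted p under 0.05 in limma the counts were 7 lower and 0 higher, beside 15.4% of all genes lower and 18.6% higher. SAM without a fold threshold called 6 lower and 0 higher, beside 8.86% and 9.44% of all genes by their brightest probe. The 6 calls in limma, 46.2% of the hnRNP genes, stood beside 7.86% of all genes called lower (11.2% with median scaling, where 6 hnRNP genes fell too). The count was 4 with the mean of all probes (8.13% of all genes lower). It was 5 with the replicate block (5.39%) and without wild type replicate 1 (4.48%) or 2 (5.13%). It was 7 without background correction (10.4%) and with array weights (7.84%). The median of these 13 was -0.28 with median scaling and -0.13 without background correction, where that of all genes was -0.034 and 0.0138. Without a filter on dim probes, 18 hnRNP genes had a median of -0.0802, beside 0.0108 for all genes. At that setting 6 of the 18 were lower, beside 3.52% of all genes.

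Hnrnpa2b1, which binds exonic silencers and also takes part in mRNA transport, was read by its brightest probe (ILMN_2615855) at 10.90, 10.87, 10.90 and 10.75 in the 4 wild type mice, against 10.30, 10.39, 10.41 and 10.42 in the 4 mutant mice. The wild type values lay within a narrow band and all mutant values lay below it. The gene fell by 0.48 (SE 0.061, adjusted p = 0.0030 in limma), which is 1.39-fold lower. With the mean of its probes the difference was -0.21 and the call was lost (adjusted p = 0.059).

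Hnrnpf, Hnrnph1 and Hnrnph3 encode closely related proteins that bind runs of G. Hnrnpf (ILMN_2829171) read 8.61, 8.40, 8.33 and 8.34 in the 4 wild type mice, against 8.00, 7.86, 8.06 and 7.82 in the 4 mutant mice. It fell by 0.48 (SE 0.085, adjusted p = 0.0083 in limma), and no mutant mouse reached the lowest wild type mouse. The brightest probe of Hnrnph1 (ILMN_1218767) read 10.22, 10.09, 10.09 and 10.34 in the 4 wild type mice, against 9.81, 9.72, 9.91 and 9.81 in the 4 mutant mice, a difference of -0.37 (SE 0.075, adjusted p = 0.013 in limma). Again the genotypes were separate. Hnrnph3 (ILMN_2958912), a dimmer gene, read 6.17, 6.12, 6.14 and 6.04 in the 4 wild type mice, against 5.72, 5.98, 5.62 and 5.79 in the 4 mutant mice, a difference of -0.34 (SE 0.080, adjusted p = 0.021 in limma). The gap between its highest mutant and lowest wild type mouse was small, and the call was lost without wild type replicate 1 (-0.32, adjusted p = 0.056) or wild type replicate 2 (-0.34, adjusted p = 0.0501).

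Hnrnpk, a KH-domain protein that binds runs of C, was measured by its brightest probe (ILMN_1245987) at 9.20, 8.93, 8.99 and 8.97 in the 4 wild type mice, against 8.56, 8.74, 8.68 and 8.70 in the 4 mutant mice. It fell by 0.35 (SE 0.075, adjusted p = 0.015 in limma), with separate genotypes. With the replicate number as a block the adjusted p was 0.052, and with the mean of its probes the sign turned (0.087, adjusted p = 0.64). Hnrnpll, known in T cells for silencing variable exons of the CD45 gene, read 9.10, 9.08, 9.06 and 9.04 in the 4 wild type mice, against 8.74, 8.81, 8.87 and 8.59 in the 4 mutant mice (ILMN_2684732). The wild type mice were almost identical, and the mutant mice all lay lower and were more spread. The difference was -0.32 (SE 0.069, adjusted p = 0.016 in limma).

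The other 7 tested hnRNP genes did not pass the threshold. Hnrnpa1, the best studied antagonist of SR proteins, was nearest to it, with 8.09, 8.22, 8.22 and 8.11 in the 4 wild type mice, against 8.00, 7.83, 7.94 and 8.05 in the 4 mutant mice. All of its mutant values lay below the wild type values, but the difference of -0.20 (SE 0.068) had an adjusted p of 0.068 in limma. It passed in 2 of 18 settings, without background correction and with array weights. The probes of Hnrnpab, Hnrnpc, Hnrnpl and Hnrnpm were bright, at 11.77 to 12.11 in wild type mice, and differed by -0.08 to 0.05. Hnrnpdl differed by 0.0022 (SE 0.068) and Hnrnpul1 by -0.05 (SE 0.081).

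**Figure D2:**
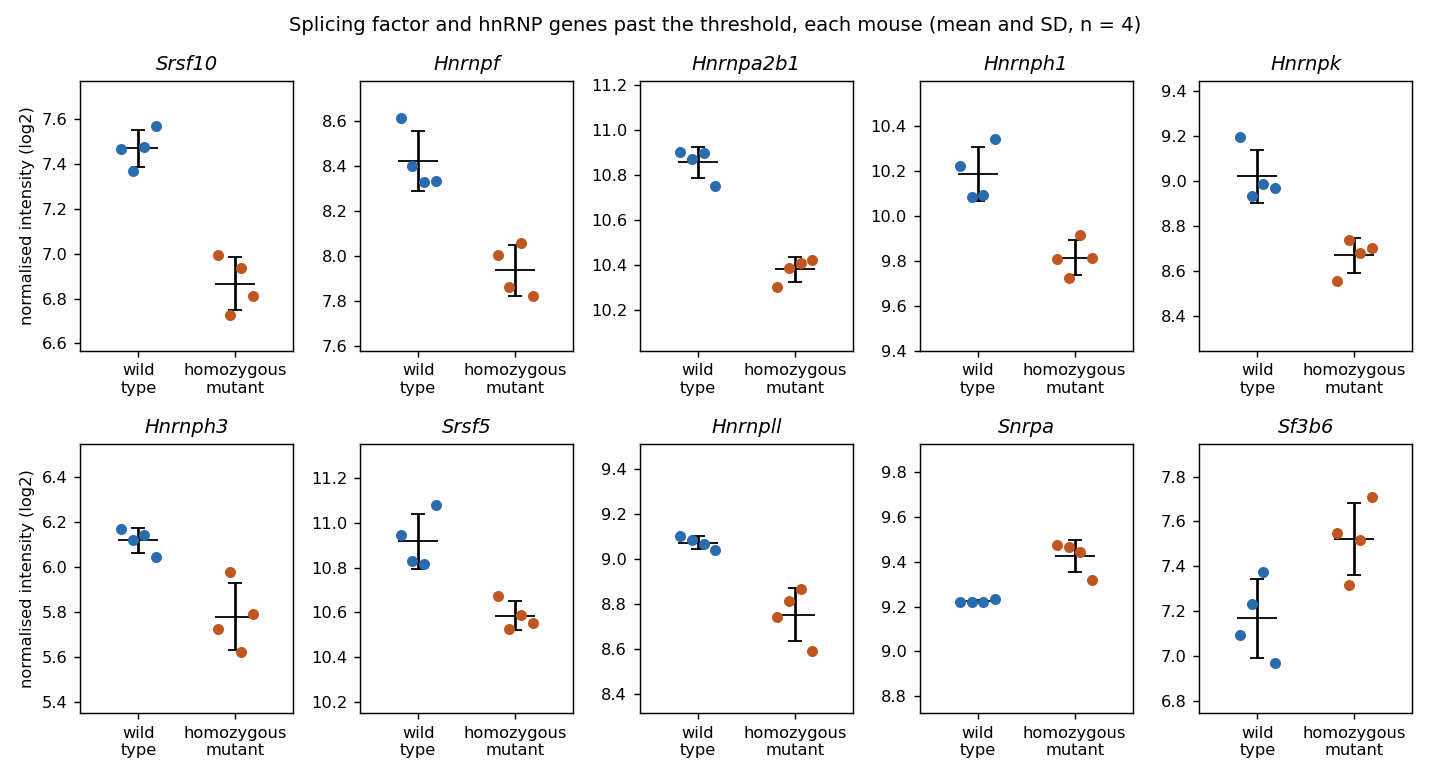
Normalised intensity (vertical axis, log2, every panel spanning the same number of units) of the 10 genes past the threshold in each of the 4 wild type (blue) and 4 homozygous mutant (orange) mice, with a line for the mean and bars for the SD. The genotypes are separate for all genes but Sf3b6, and the wild type mice of Snrpa lie between 9.22 and 9.23.

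Of 8 tested SR protein genes, 2 fell and 0 rose in limma, beside 7.86% and 8.4% of all genes. The counts were the same at an unadjusted p under 0.05 (15.4% and 18.6% of all genes) and by SAM without a fold threshold (8.86% and 9.44%). Srsf10, which acts as a splicing repressor when dephosphorylated, had the largest change of the 50 tested genes when each was read by its brightest probe. Its brightest probe (ILMN_3019002) read 7.46, 7.37, 7.48 and 7.57 in the 4 wild type mice, against 6.99, 6.73, 6.94 and 6.81 in the 4 mutant mice. The lowest wild type value was well above the highest mutant value, and the gene fell by 0.60 (SE 0.075, adjusted p = 0.0029 in limma), or 1.52-fold. With the mean of its 3 probes the difference was -0.28 (adjusted p = 0.016), smaller than those of Hnrnpf (-0.48) and Hnrnph1 (-0.44), and without background correction it was -0.35, behind Hnrnpa2b1 (-0.45) and Hnrnpf (-0.36). Srsf5, which activates splicing through exonic enhancers, read 10.94, 10.83, 10.82 and 11.08 in the 4 wild type mice, against 10.68, 10.53, 10.59 and 10.55 in the 4 mutant mice (ILMN_3148662). It fell by 0.33 (SE 0.074, adjusted p = 0.018 in limma) with separate genotypes, and its second probe gave -0.42 (SE 0.076, adjusted p = 0.009).

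For Srsf1, the prototype of the family, the brighter probe differed by -0.12 (SE 0.071, adjusted p = 0.24 in limma) with overlapping genotypes. The dimmer one read 11.07, 10.91, 11.01 and 10.97 in the 4 wild type mice, against 10.75, 10.81, 10.76 and 10.68 in the 4 mutant mice, and it passed at -0.24 (SE 0.061, adjusted p = 0.026). The difference between the probes did not pass the threshold (0.12, SE 0.075, adjusted p = 0.35 for the pair). Srsf2 differed by -0.08 (SE 0.058), Srsf3 by -0.03 (SE 0.088), Srsf4 by -0.12 (SE 0.070), Srsf6 by 0.08 (SE 0.074) and Srsf9 by 0.05 (SE 0.056), none past the threshold.

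For the fallen genes, the promoters are shown where the sequence table gave a single start, which held for 4 of the 8 (Hnrnph3, Hnrnpk, Srsf10 and Srsf5). They are the 200 bases before the start, from RefSeq on build GRCm38.p6, written 5′ to 3′ along the gene. Capitals mark matches on either strand to 5 common promoter motifs, namely the box CCAAT, the Sp1-type motif GGGCGG, the core of ETS family sites CCGGAAG, the part TGACG of the cyclic AMP response element, and the TFIID-binding motif TATAAA. Where motifs overlap, the capitals run together.
Srsf10, chr4:135855871-135856070, plus strand: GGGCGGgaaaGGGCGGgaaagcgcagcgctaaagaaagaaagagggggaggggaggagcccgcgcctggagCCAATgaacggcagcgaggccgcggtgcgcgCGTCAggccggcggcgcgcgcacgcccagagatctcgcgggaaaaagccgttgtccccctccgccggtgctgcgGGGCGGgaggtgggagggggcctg
Srsf5, chr12:80945299-80945498, plus strand: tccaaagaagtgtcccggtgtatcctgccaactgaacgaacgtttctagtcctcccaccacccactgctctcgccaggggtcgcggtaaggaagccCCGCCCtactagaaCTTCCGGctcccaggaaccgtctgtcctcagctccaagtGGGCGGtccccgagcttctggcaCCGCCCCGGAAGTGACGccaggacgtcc
Hnrnpk, chr13:58402118-58402317, minus strand: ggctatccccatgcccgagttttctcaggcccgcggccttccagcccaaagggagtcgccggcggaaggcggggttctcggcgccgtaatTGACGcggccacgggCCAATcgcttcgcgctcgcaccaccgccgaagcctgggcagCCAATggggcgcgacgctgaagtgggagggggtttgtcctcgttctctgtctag
Hnrnph3, chr10:63023850-63024049, minus strand: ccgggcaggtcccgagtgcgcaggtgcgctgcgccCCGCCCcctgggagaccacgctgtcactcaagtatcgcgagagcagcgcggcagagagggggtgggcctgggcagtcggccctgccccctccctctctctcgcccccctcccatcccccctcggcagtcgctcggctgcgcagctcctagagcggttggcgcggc

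All 4 stretches were GC-rich (63.0 to 74.5%) and none held TATAAA. Over the 250 bases before the first listed start, TGACG was found in 5 of 7 fallen genes with an entry, in 15 of the 36 other tested members with one, and in 17.9% of 27025 promoters. CCAAT was found in 4 of 7, 17 of 36 and 34.5%, and GGGCGG in 4 of 7, 23 of 36 and 32.9%. The rarer CCGGAAG was found in 2 of 7, 10 of 36 and 7.05%, and TATAAA in 0 of 7, 5 of 36 and 13%. These motifs other than TATAAA were more frequent among the 43 tested members with an entry than among all promoters. Those members were all above background in kidney, whereas the 27025 promoters were taken whether or not their gene was. The share among other genes above background was not counted. A match is a description of letters in this window and was not tested as a binding site.

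Among the Sm and U snRNP proteins, 1 of 9 tested genes rose and 0 fell in limma, a share below the 16.3% of all genes called. There were 1 higher and 1 lower at an unadjusted p under 0.05 (18.6% and 15.4% of all genes), and 1 higher and 0 lower by SAM without a fold threshold (9.44% and 8.86%). Snrpa, the U1 snRNP protein that binds a stem-loop of U1 snRNA, read 9.22, 9.22, 9.22 and 9.23 in the 4 wild type mice, against 9.47, 9.47, 9.44 and 9.32 in the 4 mutant mice (ILMN_2667509). It rose by 0.20 (SE 0.058, adjusted p = 0.041 in limma), and a second probe gave 0.24 (SE 0.087, adjusted p = 0.084) with separate genotypes too. The call held without mutant replicate 4 but was lost on leaving out any of the other 7 mice (adjusted p 0.069 to 0.094) and with median scaling (0.14, adjusted p = 0.22). Snrpd3, a core Sm protein, read 11.08, 11.14, 11.14 and 11.13 in the 4 wild type mice, against 10.97, 10.90, 10.96 and 11.02 in the 4 mutant mice. Its mutant values all lay below the wild type values, at a difference of -0.16 (SE 0.055, adjusted p = 0.071). The other Sm proteins Snrpb, Snrpd1, Snrpd2 and Snrpg and the tissue-specific Snrpn differed by -0.04 to 0.08, the U2 protein Snrpa1 by -0.07 (SE 0.082) and the U1 protein Snrpc by 0.09 (SE 0.068).

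The SF3a and SF3b subcomplexes of U2 snRNP showed 1 higher and 0 lower calls in 9 genes in limma, beside 8.4% and 7.86% of all genes. There was 1 of each at an unadjusted p under 0.05 (18.6% and 15.4% of all genes) and by SAM without a fold threshold (9.44% and 8.86%). Sf3b6, whose small protein lies next to the branch point adenosine, read 7.09, 7.23, 7.37 and 6.97 in the 4 wild type mice, against 7.55, 7.32, 7.52 and 7.71 in the 4 mutant mice (ILMN_2952292). Mutant replicate 2 fell below wild type replicate 3, so the genotypes overlapped, and the rise of 0.36 (SE 0.11, adjusted p = 0.046 in limma) was outside the rule for named genes and is given here after its values were seen. It was called in 7 of 18 settings, and on leaving out 1 mouse it held only without wild type replicate 3 or mutant replicate 2 (adjusted p up to 0.11 otherwise). Sf3b5 was lower in all mutant mice, with 10.49, 10.48, 10.41 and 10.49 in the 4 wild type mice, against 10.37, 10.30, 10.28 and 10.33 in the 4 mutant mice, but its difference of -0.15 (SE 0.055) had an adjusted p of 0.089. The remaining 7 subunits differed by -0.11 to 0.06. Sf3b1, which contacts the branch point, was dim (4.95 in wild type) and detected in 3 wild type and 1 mutant mice, so its difference of -0.04 (SE 0.11) was measured near background.

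No PRPF gene and neither U2AF gene passed the threshold in limma or by SAM, and at an unadjusted p under 0.05 there were 1 of 9 and 1 of 2, both higher, beside 18.6% of all genes. Among PRPF genes, Prpf18, a second-step factor, had the smallest p. It read 9.13, 9.18, 9.14 and 9.15 in the 4 wild type mice, against 9.26, 9.31, 9.28 and 9.26 in the 4 mutant mice, a separation of 0.13 (SE 0.051, adjusted p = 0.11 in limma). Prpf19, the ubiquitin ligase of the activated spliceosome, was likewise higher in all mutant mice, at 10.78 to 10.82 against 10.65 to 10.74, by 0.11 (SE 0.052, adjusted p = 0.17). The other 7 ran from -0.20 (Prpf38b, SE 0.10) to 0.14 (Prpf6, SE 0.070). Prpf8, the scaffold of the catalytic centre, differed by -0.06 (SE 0.070) on its brighter probe and by -0.49 (SE 0.19, adjusted p = 0.099) on the dimmer one. U2af2, the large subunit that binds the polypyrimidine tract, differed by 0.06 (SE 0.12, adjusted p = 0.76), and the related U2af1l4 by 0.22 (SE 0.091, adjusted p = 0.12).

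Counting genotypes that did not overlap, 11 of the 50 genes had all mutant mice below all wild type mice (11.1% of all genes) and 3 had all above (13.4% of all genes). These were the 8 fallen genes with Hnrnpa1, Snrpd3 and Sf3b5, and on the other side Snrpa, Prpf18 and Prpf19.

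For 24 of the tested genes more than 1 probe was above background, which allowed probes of the same gene to be set against each other. Within each array the dimmer probe was subtracted from the brightest, and these differences were compared between genotypes. Of 34 such pairs, 5 from 4 genes differed at an adjusted p under 0.05 in limma, beside 10.2% of the 3185 pairs of all genes. In 1 of the 5, of Hnrnpul1, the dimmer probe was not detected in any mutant mouse, so the pair held no measured difference. Without such pairs 4 of 33 differed, from 3 genes, beside 10.1% of 3174. By the array's annotation, these were 2 of the 3 pairs assigned to different RefSeq transcripts and 2 of the 30 assigned to 1 transcript. Probe sequences were not used here, so the exons read by each probe are not given.

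Hnrnpa2b1 fell on the bright probe described above, but a dimmer probe annotated to another transcript read 6.13, 6.19, 6.02 and 6.13 in the 4 wild type mice, against 5.95, 6.27, 6.09 and 6.37 in the 4 mutant mice. This second probe overlapped between genotypes and differed by 0.05 (SE 0.092), and the pair differed by -0.53 (SE 0.093, adjusted p = 0.011 in limma). The difference passed in all 13 other settings in which it was tested.

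The fall of Srsf10 was likewise called on 1 of its 3 probes. The second probe, annotated to another transcript, read 7.02, 7.10, 6.89 and 7.01 in the 4 wild type mice, against 6.62, 6.74, 7.06 and 6.92 in the 4 mutant mice. The last read 5.14, 5.05, 5.11 and 4.92 in the 4 wild type mice, against 5.11, 4.96, 5.05 and 4.84 in the 4 mutant mice and was annotated like the first. Both overlapped between genotypes, at -0.17 (SE 0.097) and -0.06 (SE 0.078). The first probe differed from the last by -0.54 (SE 0.093, adjusted p = 0.010 in limma), which held in all 12 other settings in which that pair was tested. Its difference from the second was -0.43 (SE 0.12, adjusted p = 0.047) and held in 5 of 13. The last probe was dim and was detected in 4 wild type and 3 mutant mice.

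The second probe of Hnrnpk was dim and read 5.29, 5.86, 5.53 and 5.62 in the 4 wild type mice, against 5.79, 5.86, 5.90 and 6.86 in the 4 mutant mice. Mutant replicate 4 lay far above every other mouse on this probe, whose difference was 0.53 (SE 0.22, adjusted p = 0.13 in limma). The pair differed by -0.88 (SE 0.23, adjusted p = 0.041) and held in 6 of 13 other settings, including without mutant replicate 4. For Hnrnpul1, whose product resembles hnRNP U, the first 2 probes gave -0.05 and -0.11. The last probe, annotated to another transcript, was detected in 4 wild type and 0 mutant mice, with 5.10, 4.96, 5.35 and 4.91 in the 4 wild type mice, against 4.63, 4.78, 4.60 and 4.50 in the 4 mutant mice. This probe was not above background in the mutant. Set against the lowest signal above background on each array, the bound on its fall was 1.13-fold. That bound has no error and is not a measured difference. The probe passed the filter through the wild type mice, so no test of it or of its pair is given.

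By contrast, the probes of Hnrnph1 moved together. Of its 5 probes 4 were lower, at -0.37, -0.59, -0.55 and -0.46, and the dimmest gave -0.24 (SE 0.13, adjusted p = 0.21). The second brightest read 9.85, 9.78, 9.77 and 9.86 in the 4 wild type mice, against 9.27, 9.15, 9.35 and 9.12 in the 4 mutant mice, again with separate genotypes. Both probes of Hnrnpll were lower (-0.32 and -0.25), as were both of Srsf5, which are annotated to different transcripts.

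**Figure D3:**
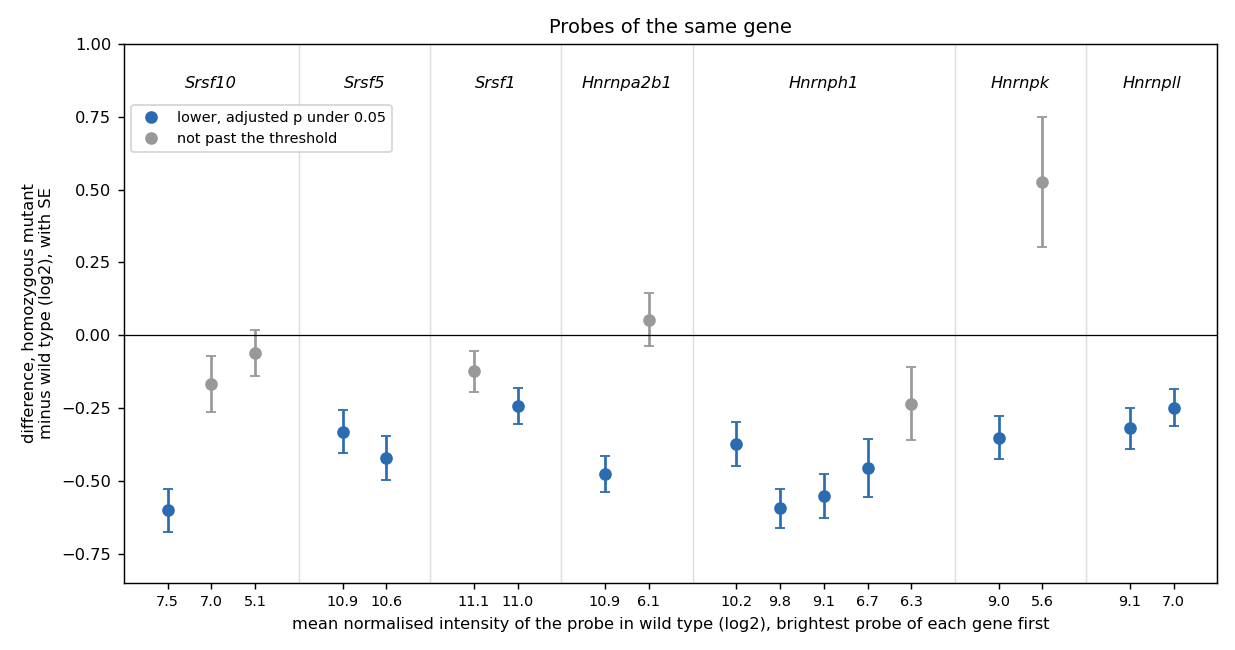
Difference between homozygous mutant and wild type mice (vertical axis, log2, mutant minus wild type, bars for SE) for each probe above background of 7 genes, namely the fallen genes with more than 1 such probe and Srsf1. The horizontal axis orders probes by brightness and gives their mean level in wild type mice (log2). The 5 probes of Hnrnph1 all lie below 0, whereas the dimmer probes of Srsf10, Hnrnpa2b1 and Hnrnpk lie nearer to or above 0 than the brightest.

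Other splicing genes, in 6 lists with 115 genes above background, gave 16 lower and 6 higher calls in limma. This 19.1% was near the 16.3% of all genes, with 13.9% lower beside 7.86%. Regulators of splice site choice gave 8 lower and 1 higher of 31. Among them were Son, a scaffold of nuclear speckles (-0.57, SE 0.12, adjusted p = 0.016 in limma), Sfpq (-0.47, SE 0.10) and Khdrbs1, or Sam68 (-0.45, SE 0.064), which all passed in the 17 other limma settings. Other spliceosome proteins gave 5 lower and 3 higher of 34, led by Smu1 (-0.36, SE 0.064), Crnkl1 (-0.29, SE 0.073) and Ppie (0.28, SE 0.084). Of 17 other settings, Ppie lost its call in 11, among them median scaling (adjusted p = 0.255), Crnkl1 in 6 and Smu1 in 1, the mean of its probes (-0.22, adjusted p = 0.085). Kinases and phosphatases of SR proteins gave 1 of each in 11. Ppp1cb, a catalytic subunit of protein phosphatase 1, had the largest change of all these lists. The study, from the same arrays, already listed Ppp1cb among its regulated kidney genes.

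Ppp1cb read 8.58, 8.56, 8.45 and 8.48 in the 4 wild type mice, against 7.71, 7.70, 7.93 and 7.78 in the 4 mutant mice, a difference of -0.74 (SE 0.070, adjusted p = 0.0023 in limma) with wide separation. The SR protein kinase gene Clk2 rose by 0.28 (SE 0.065, adjusted p = 0.022). That call was lost in 7 of 17 other settings, with a difference of 0.088 (adjusted p = 0.366) with the mean of its probes and 0.20 (adjusted p = 0.125) with median scaling. For assembly and recycling of snRNPs the counts were 2 lower and 1 higher of 17, with Tgs1 at -0.34 (SE 0.10), Strap at -0.23 (SE 0.061) and Wdr77 at 0.23 (SE 0.061). These 3 calls were near the threshold, with genotypes that overlapped for Tgs1. Of 17 other settings, Tgs1 lost its call in 11, Wdr77 in 9 and Strap in 8. The minor spliceosome list (6 genes) and the exon junction complex with mRNA export (16 genes) had 0 calls each in limma, and 2 each, all higher, at an unadjusted p under 0.05 (18.6% of all genes), with 0 each by SAM without a fold threshold. The genes named Snrnp were outside the rule for members. Of these, Snrnp70 of U1 snRNP (0.14, SE 0.072) and the helicase Snrnp200 (-0.06, SE 0.063) did not pass, and Snrnp35 of the minor spliceosome rose by 0.34 (SE 0.059, adjusted p = 0.0082), a gene singled out after its values were seen.

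SAM, the method named for these arrays in the study, was run on the authors' normalized intensities with a false discovery rate under 6% and a fold above 1.6. It called 234 probes, 0.911% of all, and 1 of the members' probes, that of Srsf10 (-0.68 on the log2 scale). The count reported in the study was lower and was of genes, and its text does not name Srsf10. The 2 sets of calls were not matched, so these are not the study's own calls. Without the fold threshold it called 9.29% of all probes and 17 of the members' 112 probes, 15 lower and 2 higher. All 8 fallen genes and both that rose had a probe among these 17. Both runs used probes below background too, and 84 of the members' 112 probes were above it, beside 12914 of all 25697. The shares of all probes and of member probes are therefore not alike. By the brightest probe of each gene above background, 9 of the 50 members were lower and 2 higher without the fold threshold. Among the 9000 genes 8.86% were lower and 9.44% higher.

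**Figure D4:**
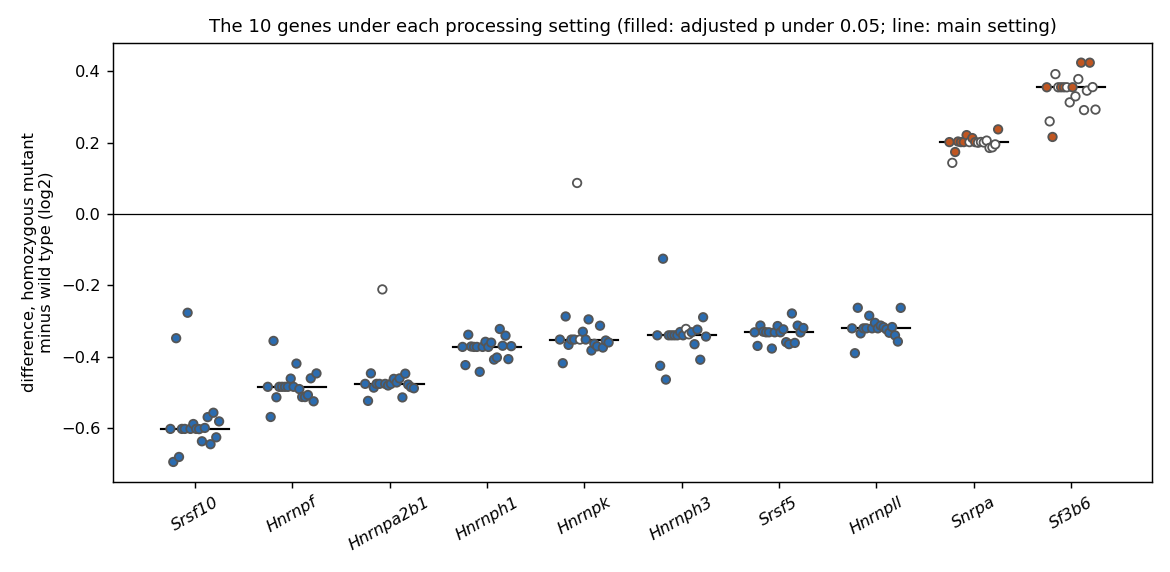
Difference between homozygous mutant and wild type mice (vertical axis, log2, mutant minus wild type) for the 10 genes past the threshold under 18 limma settings, 1 point each, filled where the adjusted p was under 0.05. Srsf10, Hnrnpf, Hnrnph1, Srsf5 and Hnrnpll are filled throughout, whereas Sf3b6 is filled in 7 and Snrpa in 9 settings. The open point of Hnrnpk above 0 is the mean of its probes.

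Of the 8 fallen genes, Srsf10, Hnrnpf, Hnrnph1, Srsf5 and Hnrnpll passed in all 18 settings, Hnrnpa2b1 in 17, and Hnrnph3 and Hnrnpk in 16. Over the 8 arrays, the correlations between these 8 genes of their deviations from the genotype means had a median of 0.084, between -0.80 and 0.82, as a description of genes that share the same arrays.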

How the data were processed

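Per the labels and the study's methods, total kidney RNA was amplified, labelled with biotin and measured on Illumina Mouse Ref8 v2.0 BeadChips, with 1 array per mouse. The authors deposited scanned intensities (linear, no background subtraction or normalization between arrays), a detection p-value per probe and array from the negative controls, and intensities that GenomeStudio 2011.1 had background-subtracted and normalized by cubic splines. No batch is named. The genome build behind the probe annotation is not given in the sources used here.

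Members were found by symbol in the platform's probe annotation (23978 of 25697 probes named). The members, the other gene lists and the rule for naming genes were chosen with earlier results of these data known. That rule took a core list of 29 splicing genes, members past the threshold with separate genotypes (up to 10 in each direction), members with a probe pair that differed, and up to 3 genes per other list. Genes outside it are named for completeness of their family. Replicates are separate mice.

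Scanned intensities were corrected with normexp from the detection p-values (offset 16), quantile-normalized and log2-transformed by neqc (limma 3.58.1, R 4.3.3). The offset understates changes of dim probes. Probes detected (p under 0.05) on at least 4 of 8 arrays were kept (12914). Genotype was tested with lmFit and eBayes, with Benjamini-Hochberg adjustment over all probes kept. Genes were represented by their brightest probe. The bound for a probe above background in only 1 genotype was taken against the lowest signal above background on each array. Probe pairs were fitted the same way over 3185 pairs. SAM was written from its description, with a floor of 16 and all 70 arrangements. The limma, pair and SAM scripts were tested on simulated data with known changes. Alternatives were other normalizations, filters, probe summaries and weights, a replicate block, and leaving out each mouse. The number of mice and signal over background limit the precision, with a median SE of 0.0697 for the members. Promoters came from RefSeq (GRCm38.p6), matched by symbol for 53 of 60 members.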

Additional observations from a re-analysis of the deposited data

Results flagged for a closer look

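Among 64 groups of 4 mice examined for a mouse set apart from the other 3 of its genotype, 3 were found; chance flags about 1 in 20 such groups. On the brightest probe of Prpf8, mutant replicate 1 was at 9.60 on the log2 scale, against 9.43 for the nearest mutant. On the brightest probe of Snrpa, wild type replicate 4 was at 9.23, with the others at 9.22. On the second probe of Hnrnpk, mutant replicate 4 was at 6.86, against 5.90 for the nearest mutant.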

How the results depend on the processing

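The 8 lower and 2 higher calls were recomputed under 17 other limma settings and with SAM. Srsf10, Hnrnpf, Hnrnph1, Srsf5 and Hnrnpll kept their calls in all 17, and counts of members called stayed within 1.5 times except with SAM at the methods' thresholds (1 called, 1 lower, 0 higher). The higher calls were 0 with median scaling, 1 with the authors' intensities, 1 without a filter on dim probes, 0 with the replicate block, 1 with array weights, and 0 to 1 on leaving out 1 mouse, which gave 7 to 9 called and 7 to 8 lower. The members' median, -0.035, was -0.0918 with median scaling, -0.0211 without background correction and -0.0533 to -0.0202 on leaving out 1 mouse, where the median of all genes, 0.0255, was -0.034, 0.0138 and 0.0239 to 0.0271. The 5 differing probe pairs, which include that of Hnrnpul1, became 2 with the authors' intensities, 3 with probes detected on all 8 arrays, 3 with the replicate block, and 2 to 4 on leaving out 1 mouse. The count was 2 without wild type replicate 1 or 3 or mutant replicate 2 or 3, and 3 without wild type replicate 4 or mutant replicate 1. It was 4 with both probes detected in both genotypes, a setting added after the data were seen, which leaves out the Hnrnpul1 pair. In the other settings that pair was lost or not tested, except without wild type replicate 4 or mutant replicate 4. Part of the drop in these counts is therefore a pair with no measured difference. Hnrnpk turned to 0.087 (adjusted p = 0.64 in limma, range over settings 0.0029 to 0.64) with the mean of its probes. That mean includes its dim second probe, which differed by 0.53. The sign turned for no other gene called in either setting compared. Among all genes, 16.3% were called, against 9.91% with the replicate block, 7.22% without a filter on dim probes and 8.58% to 12.4% on leaving out 1 mouse. The cause of these changes was not tested.

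The labels name no pairing of mice by replicate number, and none was evident. The correlations of same-numbered deviations were 0.13, -0.07, -0.096 and -0.023. The highest with a mutant mouse of another number were 0.099, 0.098, 0.137 and 0.06. Such values, of deviations within groups of 4 mice, cannot exclude a pairing. With the replicate block, 7 members were called and 7 were lower, and Hnrnpk, Snrpa and Sf3b6 lost their calls. Differences of genes near background, such as Sf3b1, cannot be resolved on these arrays.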
